A study of Mus musculus with 10 samples.

Results

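Histone genes were followed in 10 mouse cell lines of esophageal squamous cell carcinoma, which arises from the flat epithelium that lines the esophagus. Members were the rows of the deposited gene count table whose names begin with HIST1H to HIST4H, H2AF, H1F or H3F, with 1 matching gene left out by the rule. They numbered 37 of 12806 genes, 28 with replication-dependent (Hist) names and 9 variant genes (H1f0, H1fx, H2afj, H2afv, H2afy, H2afy2, H2afz, H3f3a and H3f3b). All lines came from mice of mixed strain background and carried the Trp53 genotype R172H/-, that is, 1 mutant allele and no second allele. Each line held a short hairpin RNA, either a control (shCtrl) or one against Trp53 (shTrp53), which here acts on the mutant transcript. Primary lines numbered 1 per hairpin, so neither primary group has replicates. The other 8 lines were grown out of lung metastases taken at week 8, expanded in culture and sorted by their YFP fluorescence. Of these, 5 carried shCtrl (lines 376, 377, 378, 382 and 383) and 3 carried shTrp53 (lines 384, 386 and 387). The study was designed to ask what the mutant p53 does in lung metastasis. The labels do not tie each line to a mouse of its own, so the p-values reflect line-to-line spread, which may be technical.

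Histones are the proteins around which DNA is wound. H2A, H2B, H3 and H4 form the core particle, and the linker histone H1 binds where DNA enters and leaves it. Replication-dependent histone genes lie in clusters, are transcribed in S phase and supply histones for newly made DNA. Their mRNAs end in a conserved stem-loop in place of a poly(A) tail, and the stem-loop binding protein Slbp acts on it. Variant histone genes are transcribed through the cell cycle and give polyadenylated mRNAs. The cDNA kit named in the labels, of the SMART-Seq line, primes with oligo(dT). How much of the tail-less mRNA was copied was not tested, so a low count of a replication-dependent gene is no measure of its whole mRNA pool.

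The stem-loop sets the classes apart in sequence, and the examples that follow show it in genes whose counts are described further on. The pattern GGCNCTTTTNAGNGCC was searched in the longest protein-coding transcript of each member (GENCODE M21, build GRCm38). It was found in 19 of 28 replication-dependent genes and 0 of 9 variant genes. With any protein-coding transcript of a gene searched, it was found in 21 of 11916 protein-coding genes of the table (0.176%). In the members it began 21 to 54 bases after the stop codon. Of the 9 replication-dependent genes without it, 7 have an annotated transcript that ends within 50 bases of the stop codon. Those remaining, Hist1h2bc and Hist2h2be, have 742 and 2192 annotated bases after the stop codon. Some genes with the stem-loop are also annotated far beyond it, with 1209 bases after the stop codon in Hist1h1e, 1700 in Hist3h2a and 822 in Hist1h4d. Which form was counted was not tested. Capitals mark the stem-loop and lower case the 5 bases on each side.
Hist1h1e: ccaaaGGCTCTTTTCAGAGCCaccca
Hist1h1d: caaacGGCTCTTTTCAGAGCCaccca
Hist1h2ab: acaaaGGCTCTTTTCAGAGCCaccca
Hist1h2ae: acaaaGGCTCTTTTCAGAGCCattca
Hist3h2a: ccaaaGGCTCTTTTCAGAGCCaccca
Hist1h4d: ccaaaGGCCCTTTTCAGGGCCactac
Hist2h2ac: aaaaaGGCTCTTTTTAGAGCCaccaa
The form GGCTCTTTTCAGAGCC occurred in 12 members and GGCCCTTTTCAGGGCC in 4, all 4 of them H4 genes. Hist1h1e, Hist1h2ab and Hist1h2ae, which fell with the knockdown, carry the same 16 bases as Hist3h2a, which was called lower with a term for lines 376 to 378 but not in the fit without that covariate.

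Promoters were compared over the 250 bases before the annotated start (RefSeq, GRCm38.p6, 35 of 37 members matched). The authors' build was mm9 and no coordinates were converted. On either strand, CCAAT was present in 23 of 26 replication-dependent promoters (88.5%), against 33.8% of 32851 mouse promoters. TATAAA was present in 14 of the 26 (53.8%), against 12.4%. The octamer ATTTGCAT, a binding sequence of POU factors, was in 9 of the 26 (34.6%), which were 5 of 8 H2A and 4 of 5 H2B genes and none of the 5 H1 genes, against 1.6% of all promoters. AAACACAA, known as the H1 box, was in 5 of the 26 (19.2%), against 1.67% of all promoters. These were 3 of 5 H1, 1 of 8 H2A and 1 of 5 H2B genes. None of these motifs contains another. The variant promoters held CCAAT in 5 of 9 and TATAAA, AAACACAA and ATTTGCAT in 1 each. The promoters of 2 H1 genes, 1 H2A gene and the variant H3f3b are shown because these genes fell with the knockdown and their promoters differ in motif content. They lie at chr13:21780626-21780875 (Hist1h1b), chr13:23622559-23622808 (Hist1h1e), chr13:23571221-23571470 (Hist1h2ae) and chr11:116024505-116024754 (H3f3b), all on the minus strand. Capitals mark matches on either strand.
Hist1h1b: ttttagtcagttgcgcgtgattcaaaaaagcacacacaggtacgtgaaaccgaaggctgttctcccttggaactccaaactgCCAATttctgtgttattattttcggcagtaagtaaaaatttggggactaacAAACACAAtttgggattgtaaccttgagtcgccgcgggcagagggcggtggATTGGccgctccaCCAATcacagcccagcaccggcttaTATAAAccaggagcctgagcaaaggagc
Hist1h1e: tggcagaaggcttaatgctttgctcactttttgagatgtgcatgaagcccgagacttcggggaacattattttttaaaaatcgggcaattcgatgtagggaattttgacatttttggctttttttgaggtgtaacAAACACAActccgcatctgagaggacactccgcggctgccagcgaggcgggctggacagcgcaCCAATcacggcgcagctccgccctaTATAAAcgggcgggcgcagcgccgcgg
Hist1h2ae: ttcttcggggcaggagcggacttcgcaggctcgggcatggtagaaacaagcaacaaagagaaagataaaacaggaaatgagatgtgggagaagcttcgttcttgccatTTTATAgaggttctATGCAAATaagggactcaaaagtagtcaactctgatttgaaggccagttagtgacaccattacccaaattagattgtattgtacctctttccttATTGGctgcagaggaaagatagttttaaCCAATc
H3f3b: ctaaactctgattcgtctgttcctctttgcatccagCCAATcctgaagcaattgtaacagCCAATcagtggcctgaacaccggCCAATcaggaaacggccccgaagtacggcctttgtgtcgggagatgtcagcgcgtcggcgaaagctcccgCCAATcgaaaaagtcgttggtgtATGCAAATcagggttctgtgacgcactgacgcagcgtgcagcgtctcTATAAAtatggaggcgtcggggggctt
Hist1h1b and Hist1h1e carry the H1 box and a TATAAA that begins 28 and 27 bases before the start. Hist1h1c, which was not called with the knockdown, carries the H1 box too, and Hist1h1d, which fell, does not. H3f3b carries 4 CCAAT matches, the octamer and a TATAAA at 27 bases. The Hist1h2ae window overlaps that of the H2B gene Hist1h2bg (chr13:23571150-23571399, plus strand). The TTTATA marked in Hist1h2ae is the TATAAA that begins 43 bases before the Hist1h2bg start. Matches in the overlap are counted for both genes in the shares above. A match is a run of letters and no measure of binding.

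The libraries held 11057049 to 18431216 counts in named genes. CPM are counts per 1000000 counts of a library, after TMM scaling over the 10 libraries. Trp53, the targeted gene, was at 73.7 to 131 CPM in the 6 shCtrl lines and 5.16 to 7.36 CPM in the 4 shTrp53 lines. Squamous epithelial markers were present in full (14 of 14, summed 9210 to 18354 CPM). Of the fibroblast markers 3 of 8 were in the table (summed 1.5 to 10.9 CPM), of the endothelial markers 2 of 7 (0.63 to 1.7 CPM), of the lung epithelial markers 1 of 8 (Hopx, 1.61 to 7.84 CPM) and of the immune markers 1 of 10 (Cd68, 75 to 143 CPM).

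Variant genes supplied nearly all histone counts. The 37 genes together held 785367 counts in the 10 libraries, 0.561% of all counts, of which 96.1% came from the 9 variant genes and 3.94% from the 28 replication-dependent genes. The replication-dependent share was 5.1 and 6.73% in the shCtrl and shTrp53 primary lines, 2.31 to 5.72% in the shCtrl metastatic lines and 3.13 to 3.61% in the shTrp53 metastatic lines. Per kilobase of the longest annotated transcript, H3f3b (histone H3.3) was at 1179 CPM, H2afz (H2A.Z) at 874 and H1f0 (the linker histone H1.0) at 397. Hist1h1b, the highest replication-dependent gene per length, was at 62.5 CPM per kilobase, followed by Hist1h2ae at 27.9 and Hist1h2bc at 25.8. This order depends on how far each transcript is annotated. Hist1h1b has 743 bases with 0 after the stop codon. Hist1h1e, at 36.8 CPM and 19.1 CPM per kilobase, has 1930 bases with 1209 after it. Of the 28 replication-dependent genes 6 had a mean of at least 10 CPM, while 18 had a mean under 2 CPM and 18 stayed under 40 counts in every library. Of the variants, 8 of 9 had a mean of at least 10 CPM, with H1fx below.

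**Figure D1:**
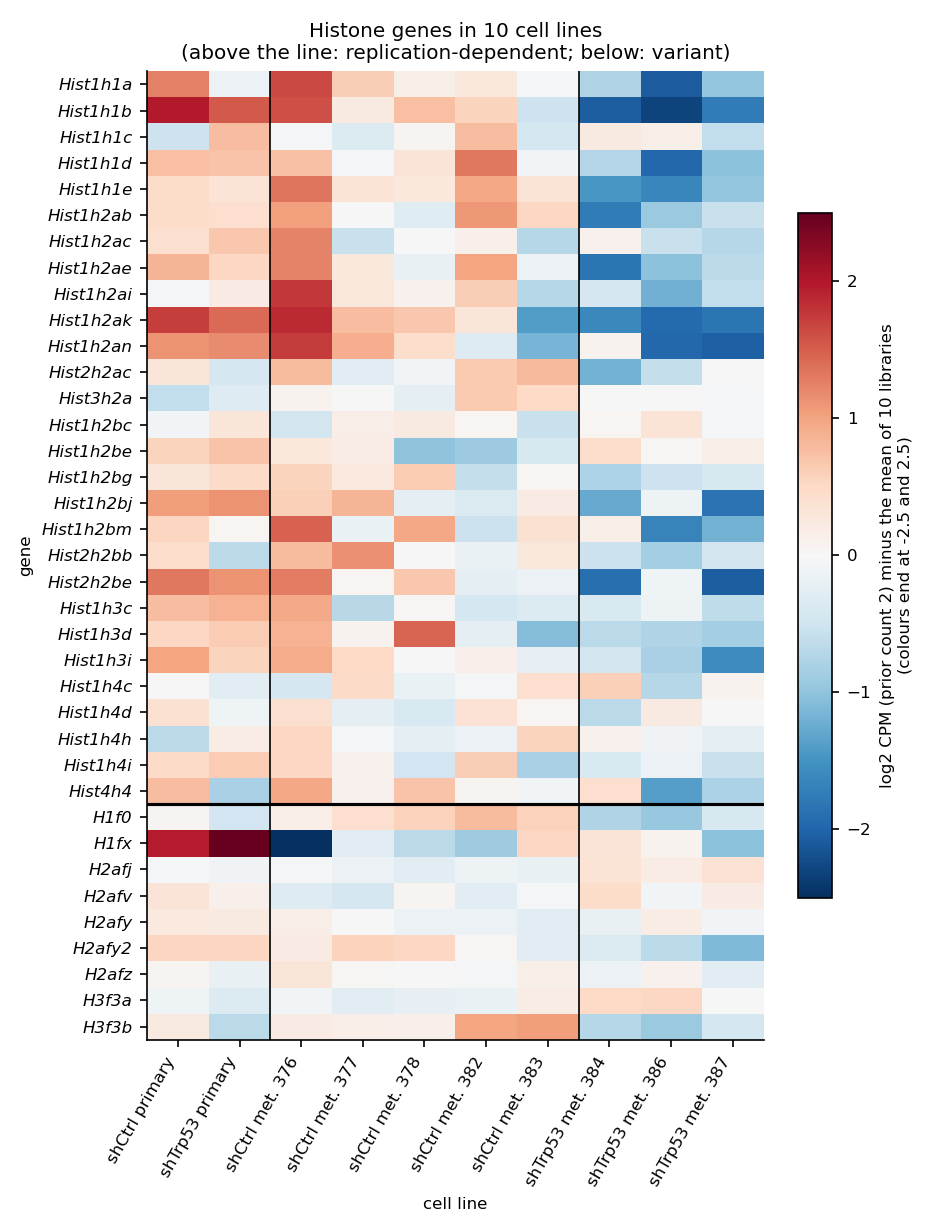
Log2 CPM of each of the 37 histone genes in each of the 10 cell lines, minus that gene's mean over the 10 libraries (red higher, blue lower), with replication-dependent genes above the horizontal line and variant genes below it. Hist1h1b, Hist1h1e, Hist1h2ak and Hist1h2ae are blue in all 3 shTrp53 metastatic lines, while H2afz varies little across the 10 lines.

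Copies of histone genes resemble each other, and the share of a gene's 50-base windows that also occur in another gene's transcripts was taken as a measure of this. It was 0% for Hist1h1b, 2.25% for Hist1h1d and 8.54% for Hist1h1c, each over the longest annotated transcript. That of Hist1h1d has 7425 bases, 4931 of them after the stop codon, while its stem-loop begins 31 bases after the stop. The share within an mRNA that ends at the stem-loop was not measured. It was 32% for Hist1h1e, 43.2% for Hist1h2ae, 57% for Hist1h2ak and 58% for Hist1h2ab. It reached 85.8% for Hist1h2an, 90.1% for Hist1h2ai and 100% for Hist2h2bb, whose single values are uncertain. Among variants it was 8.4% for H3f3b, 5.68% for H1f0, 7.18% for H2afj, 15.4% for H2afy2, 30.3% for H3f3a and 69.6% for H2afz. Read length and strand handling are not given in the labels, so how reads from shared or overlapping stretches were assigned is unknown.

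In the metastatic lines, 3 of 5 linker and 3 of 8 H2A genes of the replication-dependent class fell with the Trp53 hairpin. With edgeR's quasi-likelihood test and a Benjamini-Hochberg adjusted p under 0.05, 6 of 28 replication-dependent genes fell and 0 rose. The low-count filter passed 16 of them and left 12 untested. Over all 12120 genes tested, 10.8% fell and 10.9% rose. At an unadjusted p under 0.05 (edgeR), 9 of the 16 were below 0 and 0 above, against 2339 below and 2195 above over all genes tested. DESeq2 tested all 28 and called 8 lower and 0 higher. Over all 12797 genes DESeq2 called 1777 lower and 1654 higher. Without the filter all 28 were tested, 7 fell and 0 rose (all genes 9.86% lower and 10.8% higher). Of the 28, 26 were below 0 (all genes 6459 of 12804), with a median log2 fold change of -1.5 against -0.01 over all genes. The 12 added genes have low counts and copies share windows, so the 26 are not separate observations. The 6 genes encode 3 H1 proteins (Hist1h1b, Hist1h1d and Hist1h1e) and 3 H2A proteins (Hist1h2ab, Hist1h2ae and Hist1h2ak). Their groups did not overlap, and in all 9 of 28 replication-dependent genes had every shTrp53 metastatic line below every shCtrl metastatic line and 0 had every one above (14.2% of all genes in each direction).

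Hist1h1b, which encodes H1.5, was at 91.3, 34.5, 49.7, 43.7 and 20.5 CPM in shCtrl lines 376, 377, 378, 382 and 383 and at 6.96, 5.86 and 8.71 CPM in shTrp53 lines 384, 386 and 387. The shCtrl lines spread widely, line 376 highest and line 383 lowest, and all lay above the shTrp53 lines. Means were 47.9 ± 26.6 (SD, n = 5) and 7.18 ± 1.44 (SD, n = 3), a log2 fold change of -2.73 (SE 0.44, adjusted p = 0.00419, edgeR). Hist1h1e, which encodes H1.4, was at 77.1, 38.6, 36.7, 59.5 and 39 CPM in the shCtrl lines in the same order and at 11.1, 9.7 and 15.5 CPM in the shTrp53 lines. The highest shTrp53 line was below the lowest shCtrl line. Means were 50.2 ± 17.7 (SD, n = 5) and 12.1 ± 3.02 (SD, n = 3), a log2 fold change of -2.05 (SE 0.29, adjusted p = 0.0023, edgeR). Hist1h1d, which encodes H1.3, was low, at 2.03, 1.13, 1.49, 3.12 and 1.11 CPM against 0.645, 0.195 and 0.499 CPM. Its log2 fold change was -1.97 (SE 0.53, adjusted p = 0.0255, edgeR). Hist1h1c, which encodes H1.2, overlapped between the groups, at 3.63 to 8.51 CPM and 3.16 to 5.81 CPM, and its log2 fold change was -0.11 (adjusted p = 0.837, edgeR). Hist1h1a, which encodes H1.1, did not pass the filter, and had an adjusted p of 0.0416 in the edgeR fit without one.

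**Figure D2:**
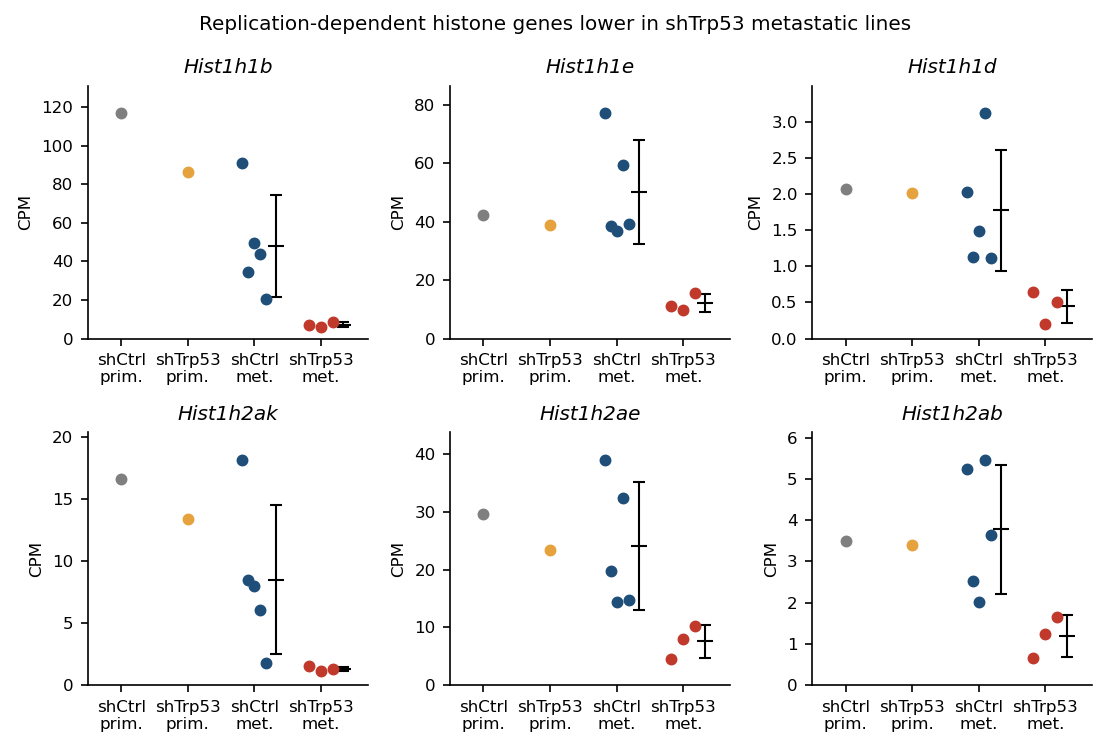
CPM of the 6 replication-dependent histone genes called lower in shTrp53 metastatic lines, 1 point per cell line in 4 groups, with the mean and SD of each metastatic group as a bar (n = 5 shCtrl, n = 3 shTrp53). In each panel the 3 shTrp53 metastatic points lie below the 5 shCtrl metastatic points.

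The H2A genes called were Hist1h2ak, Hist1h2ae and Hist1h2ab. Hist1h2ak was at 18.2, 8.51, 7.96, 6.06 and 1.78 CPM in the shCtrl lines and 1.51, 1.17 and 1.28 CPM in the shTrp53 lines (log2 fold change -2.68, SE 0.62, adjusted p = 0.0154, edgeR). Line 376 was highest and line 383 came close to the shTrp53 lines. Hist1h2ae was at 39.1, 19.7, 14.4, 32.5 and 14.8 CPM against 4.52, 7.94 and 10.2 CPM (log2 fold change -1.67, SE 0.40, adjusted p = 0.017, edgeR). Hist1h2ab was at 5.25, 2.52, 2.01, 5.47 and 3.63 CPM against 0.645, 1.24 and 1.66 CPM (log2 fold change -1.65, SE 0.45, adjusted p = 0.026, edgeR). Both sets were lower in every shTrp53 line, with line 384 lowest. Hist3h2a, the H2A gene with the highest mean CPM, lies outside the Hist1 cluster and overlapped, at 37.7 to 69.4 CPM and 42.3 to 43.9 CPM (log2 fold change -0.26, adjusted p = 0.362, edgeR). With a term for lines 376 to 378 it was called lower (-0.6, adjusted p = 0.0302, edgeR).

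No H2B, H3 or H4 gene passed this edgeR test on all 8 lines. Hist1h2bc, the leading H2B gene, was at 19.8 to 34.3 CPM in the shCtrl and 28.2 to 37.4 CPM in the shTrp53 metastatic lines (log2 fold change 0.21, adjusted p = 0.485, edgeR). Hist2h2be was at a log2 fold change of -1.83 (adjusted p = 0.0826, edgeR). It was at 0.846 CPM in line 386 and at 0.143 and 0.111 CPM in lines 384 and 387, and without line 386 it was called lower (-3.29, adjusted p = 0.0303, edgeR, range over the other fits 0.0303 to 0.422), while a term for lines 376 to 378 gave -1.1. Hist1h4d, the leading H4 gene, was at 8.85 to 15.4 CPM and 7.24 to 13.5 CPM (log2 fold change -0.18, adjusted p = 0.653, edgeR), and Hist1h4h was at -0.27 (adjusted p = 0.616, edgeR). None of the 3 H3 genes, Hist1h3c and Hist1h3i among them, passed the low-count filter.

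Sums by type do not depend on how reads were divided among copies of the same type. They do depend on reads left out and on windows shared across types, as between Hist1h1e and the H2B gene Hist1h2be. The 5 H1 genes summed to 106 ± 43.9 CPM (SD, n = 5) in the shCtrl and 24.6 ± 3.4 CPM (SD, n = 3) in the shTrp53 metastatic lines. The 8 H2A genes summed to 98.9 ± 25.3 and 58.2 ± 3.97 CPM. Sums of the 7 H2B genes were 32.2 ± 6.49 and 33.9 ± 5.19 CPM, and of the 5 H4 genes 15.8 ± 3.46 and 13.5 ± 2.52 CPM, so both differed by less than the spread among shCtrl lines. The 3 H3 genes were low, at 8 to 40 counts a library in sum, and summed to 1.62 ± 0.812 and 0.671 ± 0.197 CPM. The shTrp53 lines were at 0.444 to 0.789 CPM and the shCtrl lines at 0.815 to 2.8 CPM. The nearest lines, 384 at 0.789 and 383 at 0.815 CPM, rest on so few counts that their order is uncertain. Over all single genes, 14.2% had every shTrp53 metastatic line lower. All 28 genes together summed to 353, 212, 216, 292 and 198 CPM in the shCtrl lines and 123, 136 and 134 CPM in the shTrp53 lines, with no overlap. The 22 genes not called, a set chosen after their values were seen, summed to 118 ± 15 and 101 ± 7.7 CPM.

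**Figure D3:**
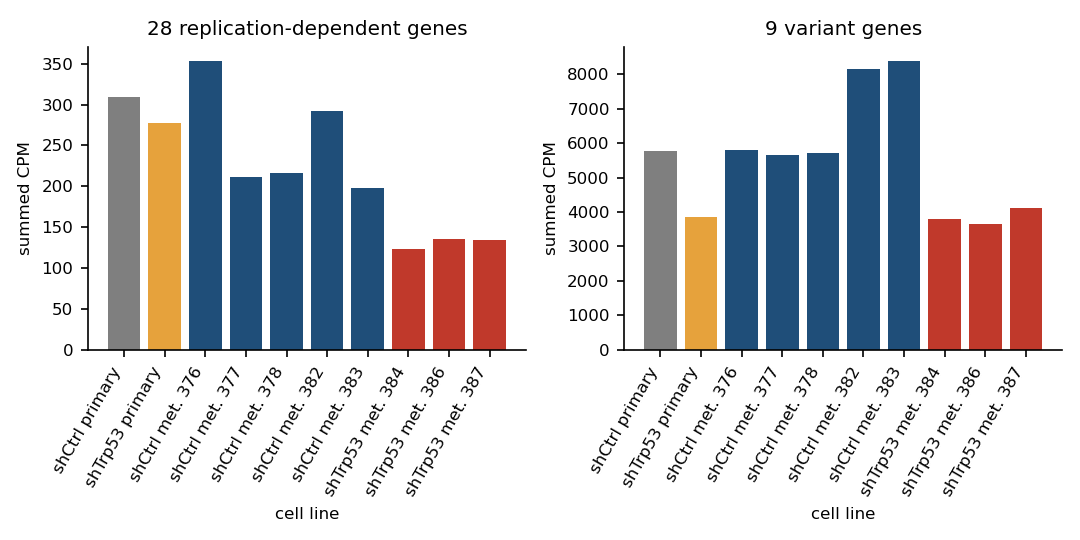
Summed CPM of the 28 replication-dependent genes (left) and the 9 variant genes (right) in each of the 10 cell lines, bars from 0, coloured by group. Replication-dependent sums are 123 to 136 CPM in the shTrp53 metastatic lines and 198 to 353 CPM in the shCtrl metastatic lines, and lines 382 and 383 have the highest variant sums.

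Variant genes did not move together. Of the 9, all tested, 3 fell and 1 rose (all genes 10.8 and 10.9%), and their median log2 fold change was 0.07. The groups did not overlap for 3 lower and 1 higher (all genes 14.2% each way). H3f3b, 1 of the 2 genes for the same H3.3 protein, was at 3074, 3007, 2936, 5264 and 5534 CPM in the shCtrl lines and 1622, 1402 and 1974 CPM in the shTrp53 lines. Lines 382 and 383 stood above the other shCtrl lines, which in turn stood above all shTrp53 lines. Means were 3963 ± 1316 (SD, n = 5) and 1666 ± 289 (SD, n = 3), a log2 fold change of -1.25 (SE 0.26, adjusted p = 0.0102, edgeR). H3f3a, the second H3.3 gene, was at 94.9 to 132 CPM and 115 to 165 CPM (log2 fold change 0.45, adjusted p = 0.0582, edgeR). In 3 of 14 other fits H3f3a was called higher, with DESeq2 (0.46, adjusted p = 0.0401), without line 383 and without line 387. The ratio of H3f3b to H3f3a CPM was 28 to 51.2 in the shCtrl metastatic lines, 8.51 to 17.2 in the shTrp53 metastatic lines, and 29.5 and 18.5 in the shCtrl and shTrp53 primary lines.

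H1f0 was at 850, 1006, 1132, 1312 and 1118 CPM in the shCtrl lines and 446, 389 and 571 CPM in the shTrp53 lines. All shTrp53 values were below the lowest shCtrl value. Means were 1084 ± 170 (SD, n = 5) and 469 ± 93.2 (SD, n = 3), a log2 fold change of -1.21 (SE 0.18, adjusted p = 0.0024, edgeR). The other variant linker gene, H1fx (H1.10), was at 0.14 to 2.22 CPM and 0.666 to 1.94 CPM and did not pass (log2 fold change 0.42, adjusted p = 0.66, edgeR). H1f0 fell alongside the replication-dependent H1 genes Hist1h1b, Hist1h1d and Hist1h1e, while Hist1h1c and H1fx did not pass the test.

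H2afy2, which encodes macroH2A2, was at 36.3, 47, 44.9, 31.9 and 26.2 CPM in the shCtrl lines and 24.3, 19.8 and 14.6 CPM in the shTrp53 lines (log2 fold change -0.93, SE 0.23, adjusted p = 0.019, edgeR). Line 383 lay closest to the shTrp53 lines. H2afj, which encodes H2A.J, was the one histone gene called higher in the edgeR fit of all 8 metastatic lines without a covariate. It was at 152, 142, 131, 145 and 139 CPM against 199, 179 and 204 CPM (log2 fold change 0.46, SE 0.11, adjusted p = 0.0144, edgeR). Every shTrp53 line was above every shCtrl line. H2afz did not pass (log2 fold change -0.17, adjusted p = 0.369, edgeR), nor did H2afv, a second H2A.Z gene (0.41, adjusted p = 0.0758, edgeR), or H2afy, which encodes macroH2A1 (0.07, adjusted p = 0.752, edgeR). The 5 variant H2A genes summed to 1583 ± 118 and 1568 ± 110 CPM, a difference smaller than the SD of either group.

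**Figure D4:**
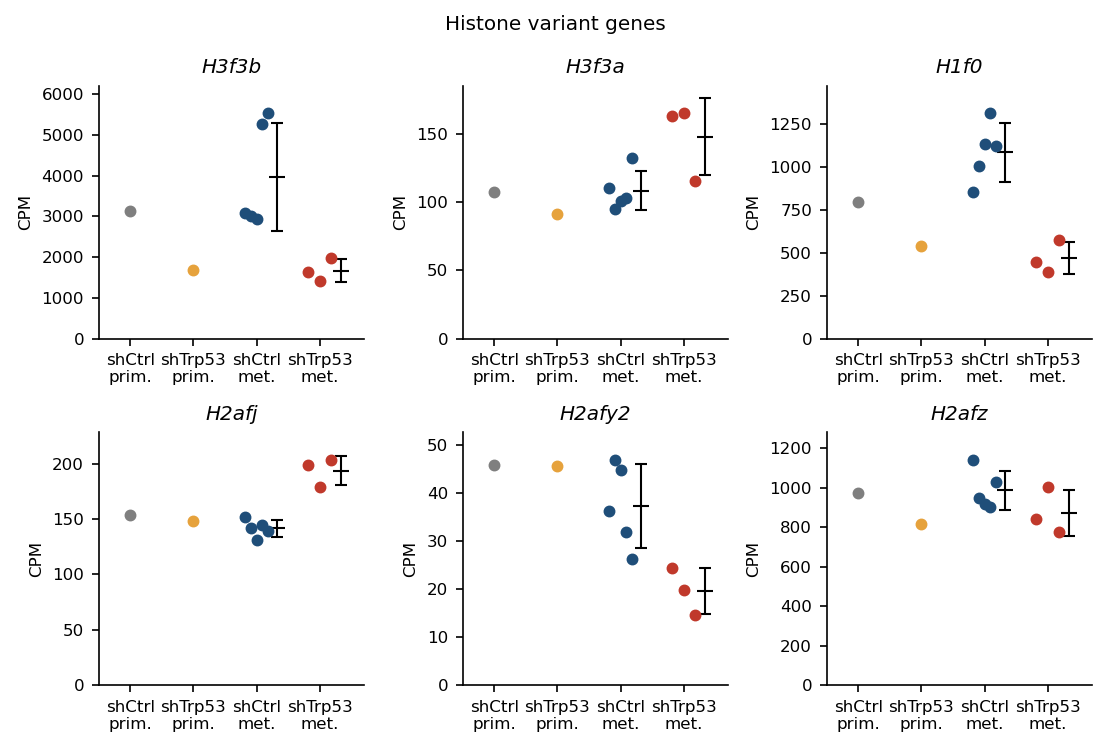
CPM of 6 variant histone genes, 1 point per cell line in 4 groups, with the mean and SD of each metastatic group as a bar (n = 5 shCtrl, n = 3 shTrp53). H3f3b and H1f0 lie lower and H2afj higher in all 3 shTrp53 metastatic lines, while the H2afz groups overlap.

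Calls differed in how far they rested on single lines. Hist1h1b, Hist1h1e, H3f3b and H1f0 kept an adjusted p under 0.05 (edgeR or DESeq2) in each of 14 other fits, which included leaving out each line and adding a term for lines 376 to 378. Leaving out line 384 ended the calls of Hist1h1d, Hist1h2ab, Hist1h2ae, Hist1h2ak and H2afj, and left 2 replication-dependent genes called in place of 6. Without line 386 the calls of Hist1h1d, Hist1h2ab, Hist1h2ae, Hist1h2ak and H2afy2 ended, Hist2h2be was added and 3 replication-dependent genes were called. Without line 387 the calls of Hist1h1d, H2afj and H2afy2 ended, and H3f3a was added as higher. The term for lines 376 to 378 ended those of Hist1h1d, Hist1h2ae, Hist1h2ak, H2afj and H2afy2 and added Hist3h2a, which left 4 replication-dependent genes called. The highest adjusted p over these fits was 0.0982 for Hist1h2ak and 0.126 for H2afy2. Line numbers are higher in all shTrp53 than in all shCtrl metastatic lines, so the hairpin and the order of the lines cannot be told apart.

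**Figure D5:**
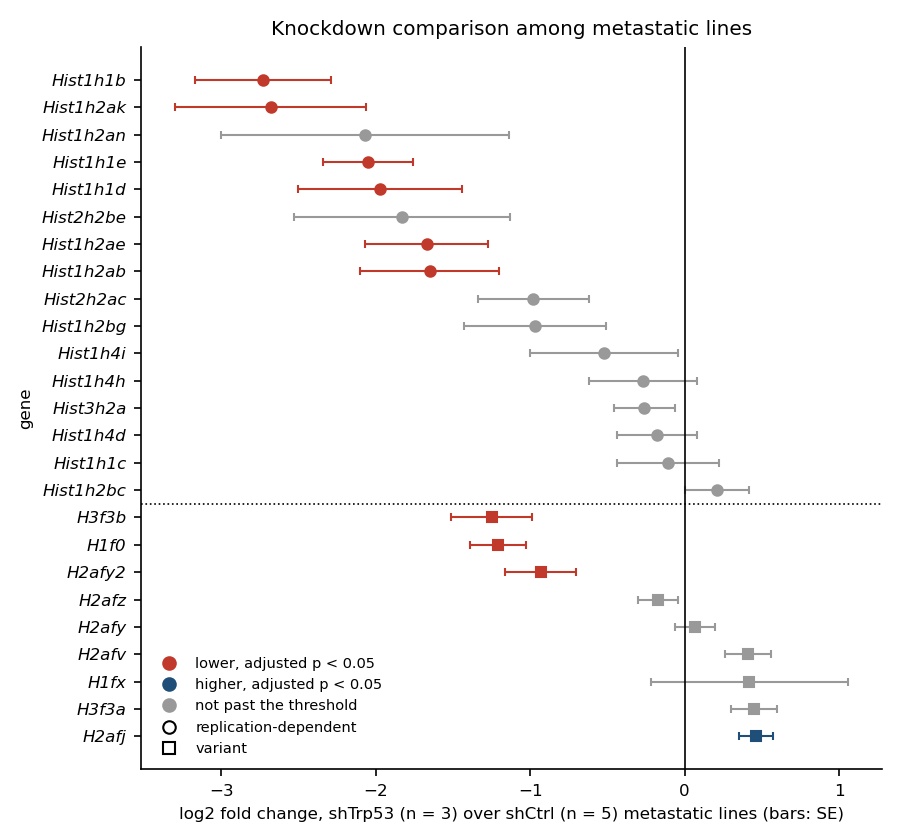
Log2 fold change of shTrp53 (n = 3) over shCtrl (n = 5) metastatic lines with its SE for each of the 25 histone genes that passed the low-count filter, circles for replication-dependent and squares for variant genes. Red marks the 9 genes called lower and blue the 1 called higher, H2afj.

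Of the 28 replication-dependent genes 23 lie on chromosome 13, and the 6 that fell are all in its Hist1 cluster. Of 13 Hist1 genes tested, the median log2 fold change was -1.65. Of 422 other genes tested on chromosome 13, 14 fell and 123 rose, with a median of 0.32, against 10.8% lower and 10.9% higher over all genes tested. Between the outermost Hist1 genes lie 6 tested genes that are no histones, of which 0 fell and 2 rose, Abt1 (0.78, adjusted p = 0.0053, edgeR) and Prss16 (0.99, adjusted p = 0.0027, edgeR). Abt1 and Prss16 were named after their values were seen.

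The gene lists that follow are read against 10.8% lower and 10.9% higher over all genes tested. Of 23 genes for histone mRNA synthesis and 3' processing, 2 fell and 1 rose (median log2 fold change -0.16). Npat, the coactivator of replication-dependent histone genes, was at 35.9, 34.6, 40.1, 40.5 and 42.3 CPM in the shCtrl and 55.4, 67.3 and 56.7 CPM in the shTrp53 metastatic lines. It was higher in every shTrp53 line (log2 fold change 0.63, SE 0.13, adjusted p = 0.00919, edgeR), in the opposite direction to the Hist1 genes named above. Srrt, which links the cap of histone and other transcripts to their processing, fell (-1.57, adjusted p = 0.011, edgeR), as did the poly(A) polymerase gene Papola (-0.37, adjusted p = 0.0337, edgeR). Slbp, named outside the rule, was at 151 to 278 CPM and 156 to 209 CPM and did not pass (-0.16, adjusted p = 0.563, edgeR). Leaving out single lines moved the number that fell between 0 (without line 384) and 6 (without line 383), with 1 in the fits without 376, 377, 378, 386 or 387.

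Of 33 histone chaperone and deposition genes, 7 fell and 1 rose, with a median of -0.23 (all genes 10.8% lower, 10.9% higher, median -0.01). Anp32e, a chaperone that removes H2A.Z, fell (-0.52, adjusted p = 0.00855, edgeR), as did Npm1 (nucleophosmin, -0.73, adjusted p = 0.0136, edgeR). Ubn1, a subunit of the HIRA complex that deposits H3.3, rose (0.72, adjusted p = 0.0142, edgeR). Of 44 S phase and DNA replication genes tested, 14 fell and 2 rose, with a median of -0.36 (all genes 10.8% lower, 10.9% higher). Rrm1, the large subunit of ribonucleotide reductase, fell (-0.79, adjusted p = 0.0101, edgeR), as did the clamp loader subunit Rfc2 (-0.6, adjusted p = 0.0101, edgeR), while the licensing factor Cdt1 rose (0.58, adjusted p = 0.011, edgeR). The summed S phase list was at 3510 to 6563 CPM in the shCtrl and 3547 to 3893 CPM in the shTrp53 metastatic lines, so the groups overlapped. Its part in the lower histone genes was not tested. In bulk RNA, fewer cells in S phase and less histone RNA per such cell cannot be told apart. Both counts moved with single lines. Leaving out line 376, 377, 378, 384, 386 or 387 in turn gave 4, 3, 4, 1, 2 and 3 chaperone genes lower. The same fits gave 9, 5, 5, 2, 2 and 6 S phase genes lower. Leaving out line 383 gave 10 and 18, and leaving out 382 gave 7 and 12. DESeq2 gave 10 and 18, and a term for lines 376 to 378 gave 1 and 2. The number lower over all genes also moved, from 1308 of 12120 in the fit of all 8 lines. Without line 376, 377, 378, 382 or 383 in turn it was 1052, 700, 790, 1245 and 1643. With DESeq2 it was 1777 of 12797. The share of 10.8% therefore does not hold for each of these fits. Of the 9 genes named from these lists, Anp32e, Rfc2 and Cdt1 kept their calls in all 14 other fits, and Papola lost its call in 8.

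Between sites, metastatic and primary lines were compared with the hairpin as a covariate, on 1 primary line per hairpin. Of 37 histone genes 35 were tested, 3 fell and 0 rose (all genes 7.65% lower and 7.14% higher, edgeR). At an unadjusted p under 0.05 (edgeR), 8 of the 35 were lower and 1 higher, against 2211 lower and 2002 higher of 12603 genes in all. Hist1h1b was at 117 and 86.3 CPM in the shCtrl and shTrp53 primary lines, above all metastatic lines except line 376, which lay between them (log2 fold change -2.59, SE 0.50, adjusted p = 0.0095, edgeR). Hist1h2ak was at 16.6 and 13.4 CPM in the primary lines (-2.26, SE 0.64, adjusted p = 0.0373, edgeR), exceeded by line 376 alone. Its call ended without line 377, 382, 384, 386 or 387 or the shTrp53 primary line, with log2 fold changes from -3.34 to -0.96 over the fits. H1fx was at 6.28 and 9.53 CPM, above all 8 metastatic lines, of which line 376 rests on 2 counts (-2.67, SE 0.53, adjusted p = 0.0108, edgeR). Without the shTrp53 primary line 0 histone genes were called, and without line 376 6 fell. The call of H1fx also ended without the shCtrl primary line (adjusted p = 0.0533, edgeR). In fits by hairpin the lone primary line is assumed to vary like the metastatic lines, and whether the hairpins differ is tested by the interaction described next. Within shCtrl lines alone the log2 fold changes were -1.29 for Hist1h1b (adjusted p = 0.328, edgeR), -0.96 for Hist1h2ak (adjusted p = 0.616) and -2.58 for H1fx (adjusted p = 0.191), and 0 histone genes were called (all genes 0.391% lower and 0.248% higher). Within shTrp53 lines alone 5 fell and 0 rose (all genes 7.19% lower and 7.87% higher), among them Hist1h1b (-3.55, adjusted p = 0.00813, edgeR) and Hist1h1e (-1.65, adjusted p = 0.0236, edgeR).

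Whether the hairpin difference itself differed between metastatic and primary lines was tested as an interaction. It was called for 0 of 37 histone genes and 0 of 12754 genes in all (0%, edgeR). At an unadjusted p under 0.05 (edgeR) there were 3 of 37 histone genes, 2 below 0 and 1 above. Over all 12754 genes there were 1168, of which 683 were below 0 and 485 above. DESeq2 called 0 histone genes. The lowest adjusted p of a histone gene was that of Hist1h1e, at -1.93 (SE 0.59, adjusted p = 0.457, edgeR), followed by Hist1h1b at -2.29 (SE 0.85, adjusted p = 0.517). The test rests on 1 primary line per hairpin.

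In the primary pair, 1 library per group, there is no replicate check and no test, and the intervals are exact binomial at 95% and cover counting error only. H3f3b was at 3141 CPM in the shCtrl and 1684 CPM in the shTrp53 primary line, a log2 ratio of -0.90 (interval -0.92 to -0.88). H1f0 was at 792 and 538 CPM (-0.56, interval -0.60 to -0.51). Both variants were lower in the shTrp53 line of this pair, as in the metastatic lines. H3f3a and H2afv had the opposite sign to that in the metastatic lines, while the interval of H2afj spanned 0. H2afj was at -0.06 (interval -0.15 to 0.03), H3f3a at -0.23 (-0.34 to -0.12) and H2afv at -0.19 (-0.26 to -0.11). In the metastatic lines they were at 0.46, 0.45 and 0.41, and only H2afj was called. Of the 9 variants 8 were below 0 in this pair, against 6558 of all 12806 genes. The interval lay below 0 for 5 variants and above 0 for 1. It spanned 0 for H2afj, H2afy (-0.03) and H2afy2 (-0.01). The 5 replication-dependent H1 genes had no common direction in this pair. Hist1h1b was at 117 and 86.3 CPM (-0.44, interval -0.55 to -0.33), Hist1h1e at 42.3 and 38.9 CPM (-0.12, interval -0.29 to 0.05) and Hist1h1d at 2.07 and 2.02 CPM (-0.03, interval -0.85 to 0.76). Hist1h1a was low, at 1.29 and 0.404 CPM (-1.39, interval -3.45 to -0.22). Hist2h2ac was lower (-0.71, interval -1.22 to -0.26). Hist1h1c, the fifth H1 gene, was higher, at 3.43 and 8.56 CPM (1.28, interval 0.83 to 1.82), as were H1fx (0.59, interval 0.20 to 1.00) and Hist1h2bc (0.39, interval 0.19 to 0.58). The 28 replication-dependent genes held 4787 and 3435 counts, a log2 ratio of -0.16 (interval -0.22 to -0.10), against -0.96 between the mean sums of the metastatic groups. The 9 variants together were at -0.59 (interval -0.60 to -0.57), against -0.81. Without H3f3b the other 8 variants summed to 2628 and 2161 CPM in the primary pair and to 2776 ± 94.1 and 2185 ± 46.7 CPM in the metastatic groups. Scaling by library totals in place of TMM moves the median log2 ratio of all genes in this pair by 0.15, from -0.02 to 0.13.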

How the data were processed

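Gene counts entered the quasi-likelihood test of edgeR 4.0.16 (R 4.3.3) after filterByExpr and TMM scaling, with robust dispersion and Benjamini-Hochberg adjustment over all genes tested, and DESeq2 1.42.0 was an alternative. The authors deposited 1 table of whole-number counts per gene for 10 libraries, 11057049 to 18431216 counts each, taken as raw counts since totals differ. Per the submitters' processing notes, STAR 2.5, Cufflinks 2.2.1, DESeq2 and build mm9 were used, with roles not given in the sources used here. Of 12824 rows, 18 bear a bare number in place of a name (0.332 to 0.491% of a library's counts) and were left out. Names stand in capitals in the table, and 12680 matched a GENCODE M21 symbol.

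Groups came from sample titles. The knockdown fit took the 8 metastatic lines, the site fit all 10 with the hairpin as covariate, and the interaction fit 4 groups. Primary lines were compared untested, as ratios of CPM on the log2 scale (prior count 2). SE was obtained by dividing the log2 fold change by the root of F. The labels name no molecular identifiers. Scripts were tested on simulated data.

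The members and gene lists were chosen with earlier results of these data known. Named genes were Trp53, members called with the knockdown, the 2 with the highest CPM per type, the 5 largest called changes each way between sites, the 3 largest ratios each way in the primary pair at a mean of at least 5 CPM, and the 3 called genes with the smallest p per list. Other variant and H1 genes are named beside them. Alternatives were DESeq2, its size factors, 2 other filters, a fit of all libraries, a term for lines 376 to 378, and leaving out each line.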

Additional observations from a re-analysis of the deposited data

Results flagged for a closer look

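In 2 of 39 histone genes and sums read in the 5 shCtrl metastatic lines, 1 line stood apart from the other 4. Hist1h2ac was at 1.26 CPM in line 376 and at 0.222 to 0.505 CPM in the others. Hist1h1a was at 1.75 CPM in line 376 and at 0.444 to 0.781 CPM in the others. Chance gives such a gap in about 1 of 20 groups, and the same line also held the highest values of Hist1h1b, Hist1h1e and Hist1h2ak. Neither gene passed the low-count filter of the knockdown comparison.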

How the results depend on the processing

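Among the 37 histone genes, the knockdown comparison called 9 lower and 1 higher. Leaving out each line moved these counts between 5 and 9 and between 0 and 2. DESeq2 called 11 lower and 2 higher, against 1777 lower and 1654 higher of 12797 genes in all. A term for lines 376 to 378 left 6 lower and 0 higher. Leaving out each line moved the site comparison's 3 lower genes between 0 and 6, with 0 in shCtrl lines alone and 5 in shTrp53 lines alone. Leaving out lines moved the log2 ratio of the metastatic replication-dependent sums between -1.04 and -0.81 and of the variant sums between -0.86 and -0.72. Scaled by library totals, the primary pair's log2 ratios were -0.01 (replication-dependent) and -0.43 (variant). Directions turned only in genes that had not passed the test. Leaving out each line in the knockdown comparison, Hist1h4d ran from -0.36 to 0.04 (without line 384), Hist1h1c from -0.27 to 0.14 (without 382, and 0.12 without 387) and H2afy from -0.04 (without 386) to 0.14, and H1fx was at -0.11 with the term. Between sites, leaving out the shCtrl or the shTrp53 primary line gave 0 and -0.31 for Hist1h4d, -0.29 and 0.96 for Hist1h4h, -0.02 and 0.34 for H3f3b, -1.68 and 0.25 for Hist1h1e, and -0.18 and 0 for Hist1h2bc. Hist1h1e was at 0.25 in shCtrl lines alone, and Hist1h4d at 0.04 and Hist1h4h at -0.25 in shTrp53 lines alone. The cause was not tested. No paired analysis was possible because the groups share no line numbers. The interaction could not be fitted without a primary line. Depth limits the 18 replication-dependent genes under 40 counts in every library.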
